A study of Mus musculus with 12 samples.

Results

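Cyclic AMP phosphodiesterases are the enzymes that hydrolyze cAMP to AMP, and 9 of their genes were followed in bone marrow-derived macrophages (BMDMs) after treatment with fenoterol, a beta-adrenergic agonist. The 9 genes, *Pde4a*, *Pde4b*, *Pde4d*, *Pde3b*, *Pde7a*, *Pde7b*, *Pde8a*, *Pde2a* and *Pde1b*, were chosen by symbol, for enzymes that act on cAMP, with earlier results of these data known. They are 9 of 53379 genes in the count table. The BMDMs came from 4 C57Bl/6J mice, male and between 8 and 20 weeks old according to the methods, with no transgene or deletion in any group. Bone marrow from the leg bones was cultured for 1 week with serum and medium conditioned by L929 cells, a fibroblast line that secretes the macrophage growth factor CSF1. Each mouse gave 1 library of untreated cells and 2 of cells that received 1 μM fenoterol for 1 h or for 4 h, which made 3 groups of 4 libraries. No vehicle or time-matched control was named for the untreated cells. RNA was sequenced from poly(A)-selected, stranded libraries.

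Beta-adrenergic agonists act through the G protein Gs, which activates adenylyl cyclases to make cAMP, and cAMP then opens the protein kinase A (PKA) holoenzyme and the exchange factors of the EPAC type. Phosphodiesterases end this signal and confine it to parts of the cell. PDE4 enzymes are specific for cAMP and are prominent in immune cells, where drugs that inhibit them lower the release of TNF. PDE7 and PDE8 enzymes are also specific for cAMP and bind it with high affinity. PDE3B hydrolyzes cAMP and is inhibited by cGMP, PDE2A hydrolyzes both nucleotides and is stimulated by cGMP, and PDE1B hydrolyzes both and is activated by calcium and calmodulin.

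Libraries held 14580533 to 22580692 counts without fenoterol, 18288911 to 20549801 after 1 h of it and 18446470 to 24153284 after 4 h. Of 53379 genes, 12386 passed the filter on low counts and entered edgeR's quasi-likelihood test, among them 8 of the 9 phosphodiesterases. The exception was *Pde2a*. The 8 macrophage markers examined, *Adgre1*, *Csf1r*, *Itgam*, *Cd68*, *Mertk*, *Fcgr1*, *Lyz2* and *Cd14*, were all tested, and their normalized counts summed to 749009 to 785413 in untreated cells, 724682 to 852248 at 1 h and 701522 to 788907 at 4 h. Of these markers 2 passed the threshold at 1 h, where 20.1% of all genes did, and 7 at 4 h, where 40.0% did. At both times *Cd14* was higher (log2 fold change 2.39 and 2.52) and *Mertk* lower (log2 fold change -0.20 and -1.51). At 4 h *Itgam* (log2 fold change 0.42) and *Fcgr1* (0.72) were also higher, and *Adgre1* (-0.21), *Csf1r* (-0.26) and *Cd68* (-0.22) lower. Markers of neutrophils and myeloid progenitors summed to 330 to 631, 363 to 597 and 344 to 585 normalized counts in the 3 groups, and those of stromal cells to 263 to 740, 417 to 716 and 279 to 773. Dendritic cell markers summed to at most 25.4, B cell markers to at most 6.26, T and NK cell markers to at most 2.05 and mast cell markers to at most 2.94, while the erythroid markers *Hba-a1* and *Hbb-bt* had no count in any library. None of the tested markers of other cell types passed the threshold at 1 h or 4 h, and their part in the results was not tested. In such bulk samples, fewer cells of a type and less RNA per cell cannot be told apart.

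Many phosphodiesterase genes have several promoters, and the RefSeq promoter windows held 18 starts for 7 of the 9 genes, all but *Pde3b* and *Pde7a*. Each window runs from 250 bases before to 50 bases after a start on GRCm38.p6. The windows were searched on both strands for the cAMP response element TGACGTCA, to which CREB and CREM bind, and for its half-site TGACG or CGTCA, which are reverse complements of each other and both lie within the full element. The full element was found in 0 of the 18 windows and in 1.79% of all 32851 windows. A half-site was found in 4 of the 18, or 22.2%, against 20.8% of all windows, so that the phosphodiesterase windows held it about as often as promoters in general. The 3 windows with a half-site before the start are shown because they belong to *Pde4b* and *Pde8a*, which rose at different times, and to *Pde4a*, which did not rise against untreated cells; the half-site is in capitals. The *Pde4b* stretch, chr4:102421508-102421537 on the plus strand, has it 34 bases before an internal start. This stretch is cut to 30 bases because an annotated exon overlaps the window, and an annotated exon overlaps these 30 bases as well. The *Pde8a* stretch is chr7:81213165-81213264 on the plus strand, with the half-site 84 bases before the start. The *Pde4a* stretch is chr9:21184001-21184100 on the plus strand, with the half-site 50 bases before an internal start. *Pde4b* had 4 windows and *Pde4a* 3, and their other windows held no half-site.
Pde4b: tgatttggctgcaCGTCAattttctcatct
Pde8a: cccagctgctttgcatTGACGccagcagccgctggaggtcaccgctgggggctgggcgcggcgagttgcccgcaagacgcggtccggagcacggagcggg
Pde4a: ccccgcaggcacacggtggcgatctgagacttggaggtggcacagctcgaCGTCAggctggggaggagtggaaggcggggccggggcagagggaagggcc
The counts are sums over all transcripts of a gene and cannot tell which start was used. *Pde4d*, with 20 annotated transcript starts, had 1 window here, without a half-site.

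In untreated BMDMs the phosphodiesterase transcripts were dominated by *Pde1b* and *Pde8a*. To compare genes, counts were expressed as a level, the TMM-normalized RPKM, which is reads per kb of exon scaled to the library size. *Pde1b* had a level of 17.7 ± 1.46 (SD, n = 4) and *Pde8a* of 14.2 ± 1.05. Their ranges all but met, since in mouse 3 the lowest *Pde1b* level was 15.505 and the highest *Pde8a* level 15.5036. *Pde3b* at 3.71 ± 0.512, *Pde4a* at 3.23 ± 0.100, *Pde4b* at 3.02 ± 0.345 and *Pde7a* at 2.97 ± 0.268 followed, and each overlapped the next in this order. *Pde7b* was lower at 1.30 ± 0.365 and *Pde4d* lowest of the tested members at 0.158 ± 0.0103, above only 3.88% of 12375 tested genes with a known exon length. *Pde2a* had 0 to 3 counts per untreated library.

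The plot of normalized counts by mouse shows 4 courses: an early peak, an early rise that continued, a late rise, and small differences. Against untreated BMDMs, 4 of the 8 tested members passed an adjusted p of 0.05 at 1 h, 3 higher and 1 lower, where 20.1% of all tested genes did, 10.0% higher and 10.1% lower. At 4 h, 7 of 8 passed, 5 higher and 2 lower, where 40.0% of all genes did, 19.7% higher and 20.4% lower. Between 4 h and 1 h, 8 of 8 passed, 5 higher and 3 lower, against 38.5% of all genes, 18.7% higher and 19.8% lower. A rise of at least 2-fold that passed the threshold was found for 2 of 8 members at 1 h and 5 of 8 at 4 h, where 2.97% and 4.00% of all genes had one, and for 3 of 8 members between 1 h and 4 h, where 2.19% did. Values in all libraries of 1 group lay on 1 side of the other group for 4 of 8 members at 1 h, where 23.0% of all genes did so, for 6 of 8 at 4 h, against 37.6%, and for 7 of 8 between the times, against 35.9%. The median log2 fold change of the 8 members was 0.20 at 1 h and 1.43 at 4 h, and that of all tested genes was -0.0049 and 0.0042. Both comparisons use the same untreated libraries. The members were chosen with earlier results of these data known, so these counts describe them and do not test them as a set. With scaling by library size alone, the share of higher genes among all called went from 49.8% to 32.5% at 1 h and from 48.6% to 65.7% between 4 h and 1 h, while the median log2 fold change of all genes in the latter went from 0.0074 to 0.10.

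**Figure D1:**
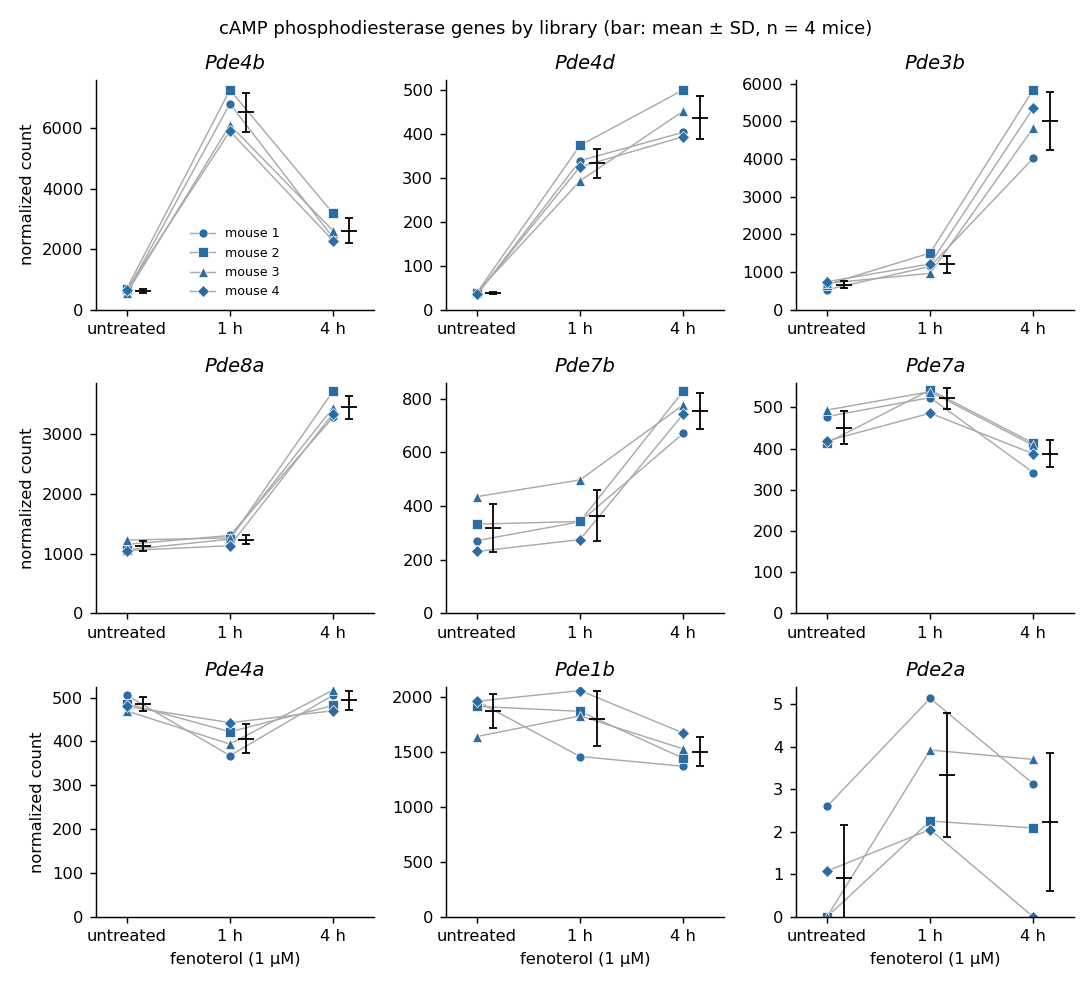
Normalized counts (y axis, from 0 in each panel) of the 9 phosphodiesterase genes in untreated BMDMs and after 1 h or 4 h of 1 μM fenoterol (x axis); each symbol is 1 mouse, grey lines join libraries of the same mouse, and black bars are the mean ± SD of 4 mice. *Pde4b* is highest at 1 h in all 4 mice, *Pde4d* is high at both times, *Pde3b*, *Pde8a* and *Pde7b* are highest at 4 h, and *Pde2a* stays at 5.13 normalized counts or less.

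*Pde4b* rose most at 1 h and had fallen by 4 h, though not to its untreated level. This gene (ENSMUSG00000028525, chromosome 4, 102087543 to 102607259, plus strand, GRCm38) encodes a PDE4 enzyme that in macrophages is best known for its link to TNF production. Its normalized counts in mice 1 to 4 were 586, 700, 546 and 667 untreated, 6808, 7266, 6107 and 5902 at 1 h, and 2382, 3185, 2615 and 2286 at 4 h. All 1 h libraries lay above all 4 h libraries, and these above all untreated libraries. The log2 fold change against untreated was 3.39 ± 0.12 (SE) at 1 h, or 10.5-fold, with an adjusted p of 2.76e-11 by edgeR's quasi-likelihood test, rank 33 of 12386 genes by p. At 4 h it was 2.07 ± 0.11, or 4.20-fold (adjusted p = 2.69e-09), and between 1 h and 4 h *Pde4b* fell by 1.32 on the log2 scale (adjusted p = 2.52e-07), in 4 of 4 mice.

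*Pde4d* also rose early, but stayed high. It lies on chromosome 13 (108449948 to 109953461, plus strand, ENSMUSG00000021699), and its product is recruited with beta-arrestin to activated beta-adrenergic receptors. Normalized counts were 34.6, 38.8, 39.5 and 35.5 in untreated BMDMs of mice 1 to 4, 339, 374, 293 and 325 at 1 h, and 403, 500, 451 and 393 at 4 h. The 3 groups did not overlap, and every mouse had its highest value at 4 h. Its log2 fold change came to 3.16 ± 0.12 at 1 h (8.95-fold, adjusted p = 8.41e-11, rank 51) and 3.56 ± 0.12 at 4 h (11.8-fold, adjusted p = 3.88e-11, rank 21), and the rise from 1 h to 4 h was 0.39 ± 0.10 (adjusted p = 0.00573), all by edgeR's quasi-likelihood test. Because *Pde4d* started so low, its level at 4 h, 1.86 ± 0.208, still exceeded only 28.7% of tested genes and was the lowest of the 8 tested members.

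The fold changes at 1 h were thus of like size while the levels of *Pde4b* and *Pde4d* were far apart. The ratio of the level of *Pde4b* to that of *Pde4d* was 19.2 ± 2.49 (SD, n = 4) in untreated BMDMs and 22.3 ± 1.29 at 1 h, with overlapping ranges, and 6.79 ± 0.311 at 4 h, where its highest value, 7.25, was below the lowest untreated value, 15.7.

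*Pde4a* did not follow the other 2 genes of its family. This gene (ENSMUSG00000032177, chromosome 9, 21165714 to 21213248, plus strand) had 505, 486, 469 and 480 normalized counts in untreated BMDMs of mice 1 to 4, 368, 422, 394 and 443 at 1 h, and 505, 482, 517 and 470 at 4 h. The 1 h libraries were the lowest, and untreated and 4 h libraries overlapped. *Pde4a* fell by 0.26 on the log2 scale at 1 h (SE 0.07, adjusted p = 0.0158), in 4 of 4 mice, and was higher at 4 h than at 1 h by 0.28 ± 0.07 (adjusted p = 0.00489), while at 4 h the difference from untreated was 0.02 ± 0.07 (adjusted p = 0.82 by edgeR's quasi-likelihood test). The call at 1 h was lost without the 1 h library of mouse 1 (adjusted p = 0.0504) or mouse 3 (adjusted p = 0.0549), and with no filter on low counts (adjusted p = 0.0593).

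**Figure D2:**
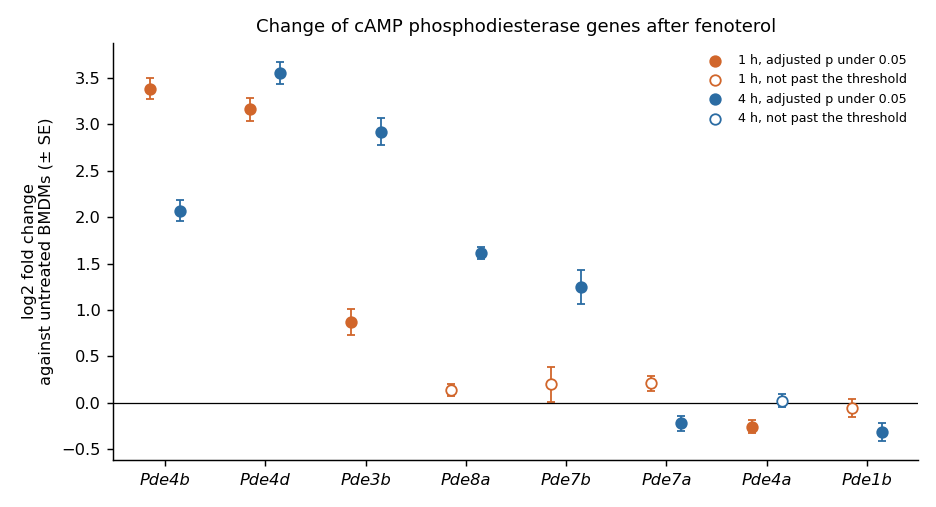
Log2 fold change against untreated BMDMs (y axis, bars ± SE derived from edgeR's test) of the 8 tested phosphodiesterase genes at 1 h (orange) and 4 h (blue) of fenoterol. Filled circles have an adjusted p under 0.05. *Pde4b* falls from 3.39 to 2.07 between the times, *Pde4d* goes from 3.16 to 3.56, *Pde3b* from 0.87 to 2.92, and *Pde8a* and *Pde7b* are filled at 4 h only.

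*Pde3b*, *Pde8a* and *Pde7b* were highest at 4 h. *Pde3b* (ENSMUSG00000030671, chromosome 7, 114415281 to 114539251, plus strand) encodes a membrane-bound enzyme known from fat cells and liver, where insulin activates it. It had 533, 669, 702 and 744 normalized counts in untreated BMDMs, 1151, 1508, 968 and 1216 at 1 h, and 4023, 5843, 4826 and 5355 at 4 h. Each group lay wholly above the one before. The log2 fold change of *Pde3b* was 0.87 ± 0.14 at 1 h (1.83-fold, adjusted p = 0.000447) and 2.92 ± 0.15 at 4 h (7.58-fold, adjusted p = 1.26e-09), with a difference of 2.05 ± 0.14 between the times (adjusted p = 5.12e-08). Of its 9104 stretches of 50 bases, 14 also occurred in other genes.

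*Pde8a* (ENSMUSG00000025584, chromosome 7, 81213596 to 81334533, plus strand) encodes an enzyme with very high affinity for cAMP. Its normalized counts were 1157, 1066, 1229 and 1051 in untreated BMDMs of mice 1 to 4, 1305, 1243, 1265 and 1134 at 1 h, and 3288, 3725, 3448 and 3350 at 4 h. Untreated and 1 h libraries overlapped, with 4 of 4 mice slightly higher at 1 h, and the 4 h libraries stood clear of both. Against untreated cells *Pde8a* had a log2 fold change of 0.13 ± 0.07 at 1 h (adjusted p = 0.182) and 1.62 ± 0.07 at 4 h (3.06-fold, adjusted p = 1.55e-10), rank 54 of 12386 by p. From 1 h to 4 h *Pde8a* rose by 1.48 ± 0.07 (adjusted p = 6.2e-10 by edgeR's quasi-likelihood test).

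*Pde7b* (ENSMUSG00000019990, chromosome 10, 20398004 to 20725078, minus strand) encodes a cAMP-specific enzyme. It had 271, 332, 435 and 230 normalized counts in untreated BMDMs, 341, 342, 497 and 275 at 1 h, and 670, 827, 776 and 742 at 4 h. Mice differed more in *Pde7b* than in *Pde8a* before 4 h, with mouse 3 highest and mouse 4 lowest both untreated and at 1 h. *Pde7b* had a log2 fold change of 0.20 ± 0.19 at 1 h (adjusted p = 0.541) and 1.25 ± 0.19 at 4 h (2.38-fold, adjusted p = 7.75e-05), with a rise of 1.05 ± 0.18 between the times (adjusted p = 0.000409).

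Its paralog *Pde7a* (ENSMUSG00000069094, chromosome 3, 19223108 to 19311322, minus strand), whose product is known from T cells, had small log2 fold changes. Normalized counts were 478, 414, 493 and 419 in untreated BMDMs of mice 1 to 4, 524, 542, 538 and 486 at 1 h, and 342, 413, 408 and 387 at 4 h. The untreated and 1 h groups overlapped, and at 4 h mouse 2 was all but level with its untreated library. For *Pde7a* the log2 fold change was 0.21 ± 0.08 at 1 h (adjusted p = 0.0883) and -0.22 ± 0.08 at 4 h (adjusted p = 0.0438), and *Pde7a* fell by 0.43 between the times (adjusted p = 0.00073). The 4 h call was lost with scaling by library size alone (adjusted p = 0.0708), in a fit of only the 2 groups (adjusted p = 0.0742), with no filter on low counts (adjusted p = 0.116), and without the untreated library of mouse 1 or 3, the 1 h library of mouse 1 or 2, or the 4 h library of mouse 1 or 4 (adjusted p from 0.0531 to 0.129), while the fall between the times passed under all 22 alternatives.

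*Pde1b*, the most abundant member in untreated BMDMs, was lower at 4 h. This gene (ENSMUSG00000022489, chromosome 15, 103503034 to 103530052, plus strand) had 1962, 1915, 1640 and 1960 normalized counts in untreated BMDMs of mice 1 to 4, 1458, 1869, 1827 and 2058 at 1 h, and 1369, 1442, 1527 and 1672 at 4 h. The groups overlapped in all 3 comparisons, with mouse 3 low among untreated and mouse 1 low among 1 h libraries. The log2 fold change of *Pde1b* was -0.05 ± 0.10 at 1 h (adjusted p = 0.784) and -0.31 ± 0.10 at 4 h (1.24-fold lower, adjusted p = 0.0183), in 4 of 4 mice. The 4 h call was lost without the untreated (adjusted p = 0.0513) or the 4 h library (adjusted p = 0.0577) of mouse 1. Between 4 h and 1 h the log2 difference was -0.26 ± 0.10 (adjusted p = 0.0456), which 13 of 22 alternatives did not call, among them leaving out the untreated library of mouse 1 or 2, the 1 h library of mouse 2, 3 or 4, or the 4 h library of mouse 1, 2 or 3 (adjusted p from 0.055 to 0.144).

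*Pde2a* (ENSMUSG00000110195, chromosome 7, 101421691 to 101512827, plus strand) was close to undetected, with 0 to 3 counts per untreated library, 2 to 5 at 1 h and 0 to 4 at 4 h. It overlaps *Gm45837*, annotated on the same strand over 64.3% of its exon bases, and reads in the shared part cannot be told apart, so that its count is uncertain. *Gm45837* had 0 to 7 counts per library. No fold change is given for *Pde2a*.

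**Figure D3:**
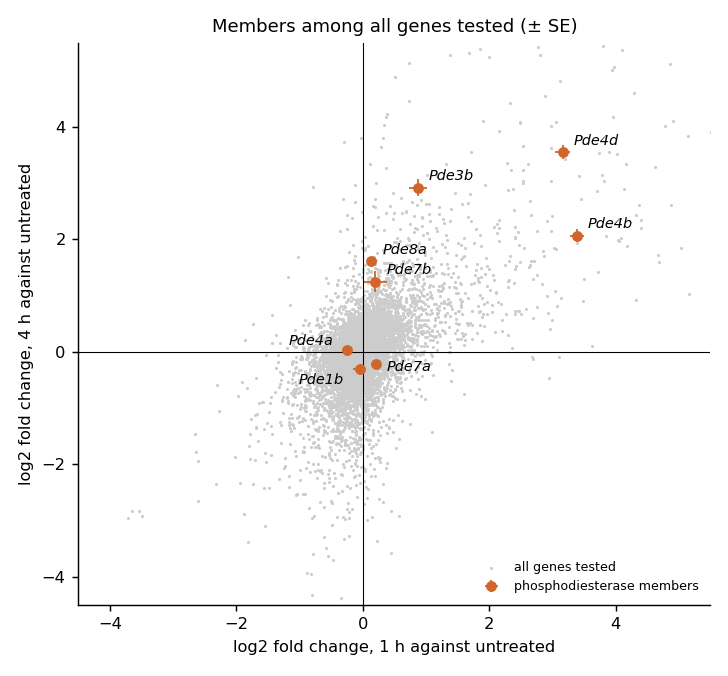
Log2 fold change at 1 h (x axis) against that at 4 h (y axis), both against the same untreated libraries, for 12386 tested genes (grey) and the 8 tested phosphodiesterase genes (orange, bars ± SE); 21 genes lie outside the axes. *Pde4b* and *Pde4d* lie at the upper right, *Pde3b* at 0.87 and 2.92, *Pde8a* and *Pde7b* above the middle, and *Pde4a*, *Pde7a* and *Pde1b* near the origin.

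The order of the transcripts by level changed at each time. At 1 h *Pde4b* was first with a level of 31.5 ± 3.04 (SD, n = 4), above 87.8% of tested genes, where it had been above 38.0% in untreated BMDMs. *Pde1b* at 17.1 ± 2.37 and *Pde8a* at 15.6 ± 0.920 followed with overlapping ranges, then *Pde3b* at 6.78 ± 1.25, *Pde7a* at 3.44 ± 0.169 and *Pde4a* at 2.71 ± 0.218. *Pde7b* at 1.49 ± 0.386 and *Pde4d* at 1.41 ± 0.142 overlapped. At 4 h *Pde8a* was first at 43.6 ± 2.44, above 92.1% of tested genes, and *Pde3b* second at 28.1 ± 4.36, above 87.0%. *Pde1b* at 14.2 ± 1.23 and *Pde4b* at 12.6 ± 1.95 overlapped, as did *Pde4a* at 3.29 ± 0.144 and *Pde7b* at 3.09 ± 0.270, and *Pde7a* at 2.55 ± 0.214 and *Pde4d* were the lowest of the tested genes. This order depends on exon length. By normalized counts, which are not divided by it, *Pde3b* had a higher mean at 4 h than *Pde8a*, 5012 against 3453.

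The summed level of the 9 genes was 46.3 ± 0.354 in untreated BMDMs (45.9 to 46.8 in the 4 mice), 80.0 ± 4.20 at 1 h (77.7 to 86.3) and 109 ± 8.84 at 4 h (98.6 to 120). *Pde4b* and *Pde4d* together made up 6.37%, 7.69%, 6.11% and 7.30% of this sum in untreated BMDMs of mice 1 to 4, 43.8%, 42.5%, 39.6% and 38.4% at 1 h, and 13.4%, 14.6%, 13.4% and 11.6% at 4 h. No 2 groups overlapped, and the mean share was 34.2 percentage points higher at 1 h than untreated and 6.38 points higher at 4 h. These shares are a description and no p is given for them, since the genes were chosen with earlier results known. The share of *Pde1b* went from 38.2% ± 2.96 through 21.3% ± 3.12 to 13.0% ± 1.28 (SD, n = 4) with log2 fold changes of -0.05 and -0.31 in its own counts. The share of *Pde8a* went from 30.7% ± 2.33 through 19.5% ± 1.45 to 39.9% ± 1.54, and that of *Pde3b* from 8.02% ± 1.15 through 8.43% ± 1.17 to 25.6% ± 2.16. The sums are of RNA reads and do not weigh the activity of each enzyme. They and the shares also depend on the exon lengths by which counts were divided.

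**Figure D4:**
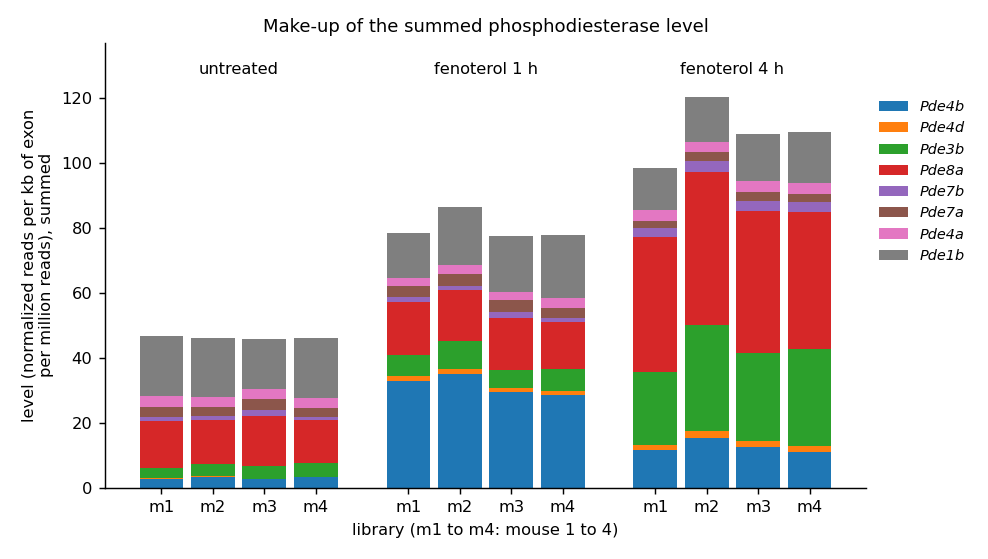
Summed level (y axis, TMM-normalized RPKM) of the phosphodiesterase genes in each of the 12 libraries (x axis, m1 to m4 for mice 1 to 4), with the part of each gene stacked in its colour; *Pde2a* is too low to be drawn. The sum grows from 45.9 to 46.8 untreated to 98.6 to 120 at 4 h; blue (*Pde4b*) is largest at 1 h, and red (*Pde8a*) and green (*Pde3b*) at 4 h.

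Across the 12 libraries, the genes with the most similar pattern were sought among 10283 genes, by Pearson's r of log2 normalized counts and as a description, since all values come from the same libraries. Because the libraries form 3 groups, r mostly follows the group means where these lie far apart. Nearest to *Pde4b* were *Nuak2* (r = 0.997), a kinase of the AMPK-related family, *Itpkb* (r = 0.995), an inositol trisphosphate kinase, and *Nr4a2* (r = 0.995), an orphan nuclear receptor. Nearest to *Pde4d* were *Cytip* (r = 0.998), which encodes a protein that binds cytohesins, *Cyth1* (r = 0.998), which encodes a cytohesin, and *Thbs1* (r = 0.998), which encodes thrombospondin. The nearest genes were *Antxr2* (r = 0.997), *Man2a1* (r = 0.994) and *Nid2* (r = 0.993) for *Pde8a*, *Ttc39b* (r = 0.994), *Rbms1* (r = 0.989) and the clock repressor *Cry1* (r = 0.988) for *Pde3b*, and *Zdhhc5* (r = 0.984), *Icmt* (r = 0.969) and *Mpp7* (r = 0.968) for *Pde7b*. Among the members themselves r was 0.959 for *Pde3b* with *Pde8a*, 0.924 for *Pde7b* with *Pde8a* and 0.876 for *Pde4b* with *Pde4d*, but 0.199 for *Pde4b* with *Pde8a*.

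Of 7 further genes for phosphodiesterases that act on cAMP, *Pde1a*, *Pde1c*, *Pde3a*, *Pde4c*, *Pde8b*, *Pde10a* and *Pde11a*, 3 were tested, and none passed at 1 h, where 20.1% of all genes did, while at 4 h 2 were lower, where 20.4% of all genes were, and the call of the third, *Pde10a*, is left out of the count. *Pde10a*, whose product hydrolyzes both nucleotides and is known from the striatum, had 0 to 2 counts per untreated library, 1 to 3 at 1 h and 21 to 39 at 4 h, at least 8.11-fold higher than a floor of 3 counts per untreated library. It passed the filter on low counts only through the 4 h libraries where it is high, so no p is given for it. *Pde1c*, a calmodulin-dependent paralog of *Pde1b*, had 46 to 95 counts per untreated library and 9 to 19 at 4 h, and fell by 2.36 on the log2 scale (adjusted p = 1.59e-05). *Pde8b*, the paralog of *Pde8a*, fell by 0.95 on the log2 scale (adjusted p = 0.00128), from 48 to 76 counts untreated to 22 to 37 at 4 h. *Pde8a* and *Pde8b* thus changed in opposite directions at 4 h. Of 8 genes for phosphodiesterases that act on cGMP or for subunits, 2 were tested, *Pde5a* and the subunit gene *Pde6d*. Neither passed at either time (adjusted p from 0.552 to 0.94), where 20.1% of all genes did at 1 h and 40.0% at 4 h.

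Upstream of cAMP, of 10 adenylyl cyclase genes 5 were tested. None was called at 1 h, where 20.1% of all genes were, and 2 were called at 4 h, where 40.0% were. Both were lower, as were 20.4% of all genes: on the log2 scale *Adcy9* fell by 1.37 (adjusted p = 1.79e-08) and *Adcy3* by 0.96 (adjusted p = 0.000301). *Adcy7*, the cyclase with the highest level, had a log2 fold change of 0.05 at 1 h (adjusted p = 0.543) and 0.07 at 4 h (adjusted p = 0.272).

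Downstream, 6 of 6 genes for PKA subunits were tested, with 2 higher at 1 h and, at 4 h, 4 higher and 1 lower, where 10.0% of all genes were higher at 1 h, and 19.7% higher and 20.4% lower at 4 h. The regulatory subunit genes *Prkar2a* (log2 fold change 0.94 at 1 h and 0.57 at 4 h) and *Prkar1a* (0.33 and 0.66) rose at both times, *Prkar2b* rose at 4 h by a log2 value of 0.68 (adjusted p = 0.000277), and the catalytic subunit gene *Prkacb* fell by 0.57 at 4 h (adjusted p = 1.46e-07). The fourth gene that rose at 4 h was the catalytic subunit gene *Prkaca*, with a log2 fold change of 0.16 (adjusted p = 0.0175), named after its value was seen. Of 3 PKA inhibitor genes 2 were tested, and *Pkib* fell at 4 h by 2.69 on the log2 scale (adjusted p = 2.34e-08), from 199 to 348 counts per library to 30 to 65. *Abcc4*, which encodes a transporter that exports cAMP, was higher at 4 h by 0.48 on the log2 scale (adjusted p = 0.000149), and *Rapgef3*, which encodes the cAMP-activated exchange factor EPAC1, had a log2 fold change of 0.50 at 1 h (adjusted p = 0.0506) and -0.40 at 4 h (adjusted p = 0.0864).

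Of 5 genes for proteins that bind phosphodiesterases, *Rack1*, *Arrb2*, *Pde4dip*, *Akap9* and *Akap12*, all tested, 1 was lower at 1 h, *Pde4dip* with a log2 fold change of -0.27 (adjusted p = 0.00168), and 1 higher at 4 h, *Akap9* with 0.23 (adjusted p = 0.0217), where 20.1% and 40.0% of all genes were called. Of 9 genes of cAMP-driven transcription (CREB-type factors, CRTC coactivators and SIK kinases), all tested, 3 were higher and 1 lower at 1 h, where 10.0% and 10.1% of all genes were, and 6 were higher at 4 h, where 19.7% were. *Crem*, from which the inducible repressor ICER is made, rose on the log2 scale by 4.90 at 1 h (adjusted p = 8.24e-12) and 4.11 at 4 h (adjusted p = 5.13e-11). *Sik1*, a salt-inducible kinase that phosphorylates CRTC coactivators, rose on the log2 scale by 4.87 at 1 h (adjusted p = 2.61e-07) and 2.61 at 4 h (adjusted p = 5.1e-05), with 22 to 212 counts in the untreated libraries. *Crtc3* rose on the log2 scale by 0.33 at 1 h (adjusted p = 0.0162) and 1.19 at 4 h (adjusted p = 7.59e-08), and *Sik3* at 4 h by 0.85 (adjusted p = 5.11e-08). The gene lower at 1 h was *Crtc1* (log2 fold change -0.35, adjusted p = 0.0256), named after its value was seen.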

How the data were processed

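RNA was measured in 12 libraries of BMDMs, 3 groups of 4, and grouped by the sample titles. Per the labels, the authors mapped reads with TopHat2 2.0.11 to GRCm38 and counted them per gene with HTSeq 0.8.0. According to the methods, libraries were stranded, and reads were single-end and came from 1 lane. The deposited values are raw counts, not normalized. The strand option and counting mode of HTSeq and the annotation release are not given in the sources used here. The table lists 53379 genes, of which 53274 were matched to GENCODE M21 for symbols, coordinates and exon lengths, and no sample column was left unused.

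Counts were tested with edgeR 4.0.16 in R 4.3.3 (filterByExpr, TMM scaling, quasi-likelihood test, 1 fit over 12 libraries with a mean per group, no covariate), with Benjamini-Hochberg adjustment over 12386 genes and a threshold of 0.05. The SE of a log2 fold change was derived from this test, as its absolute value divided by the square root of the F statistic. The study itself used limma after vsn scaling. Normalized counts are TMM-scaled to the mean library size, with TMM factors of 0.953 to 1.04. Levels are RPKM values made from TMM-scaled library sizes and union exon lengths. The fit called 81 of 100 genes changed 2-fold and 93 of 97 changed 4-fold in simulated counts of the 1 h comparison, with 7 false calls among 12233 genes. These counts were drawn independently with edgeR's own estimates of the spread and no effect of the mouse. The figures therefore do not cover the likeness between libraries of 1 mouse. Similar patterns were sought where the mean normalized count was 50 or more. Promoter windows came from RefSeq (GRCm38.p6). Figures were drawn with matplotlib 3.10.9.

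The titles number the mice 1 to 4, and equal numbers were taken as 1 mouse in all groups. For libraries of 1 mouse, deviations from group means had Pearson's r of 0.292 to 0.563 over 12 pairs, and libraries of different mice -0.297 to 0.0796 over 36 pairs. Chi-square values for pairs of libraries within a group were 9.38 to 19.5 per degree of freedom, above counting error. Nothing states whether a mouse's cells were cultured apart for each treatment.

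Alternatives were DESeq2 1.42.0, limma-voom and limma-trend from limma 3.58.1, RLE scaling, library size only, no filter, a mean count of at least 50, the mouse as a block, a fit of 2 groups alone, a threshold of 0.01, and each library left out in turn. All 9 members are named, and from each other list up to 4 genes with the smallest adjusted p, beside *Prkaca*, *Crtc1* and further macrophage markers, which were named after their values were seen; other genes of the lists are given as counts, and some items are not reported here; the 3 most similar genes are named for members whose group means span at least 2-fold. The members and lists were chosen with earlier results of these data known.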

Additional observations from a re-analysis of the deposited data

Results flagged for a closer look

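Between 4 h and 1 h of fenoterol 8 of 8 tested phosphodiesterase genes passed the threshold, where 38.5% of all genes did; *Pde1b* did so under only 9 of 22 alternatives. By edgeR's quasi-likelihood test the effect at 4 h was smaller than at 1 h for *Pde4b* (log2 difference -1.32), and larger for *Pde3b* (2.05), *Pde8a* (1.48), *Pde7b* (1.05) and *Pde4d* (0.39). For *Pde7a* the difference was -0.43, for *Pde4a* 0.28 and for *Pde1b* -0.26, the last with an adjusted p of 0.0456 that ranged from 0.00464 to 0.198 over 22 alternatives. The share of *Pde4b* and *Pde4d* in the summed phosphodiesterase level differed by -27.9 percentage points at 4 h from its value at 1 h, in 4 of 4 mice, with no overlap between the groups.

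The untreated library of mouse 3 stood apart for *Pde1b*, with 1640 normalized counts where the other 3 had 1915 to 1962 (gap 0.853 of the range). This was 1 of 27 sets of 4 libraries examined, and chance gives about 1.35 in such a number. Without this library the log2 fold change of *Pde1b* at 4 h was -0.38 (adjusted p = 0.00707).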

How the results depend on the processing

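Over 22 alternative settings, *Pde4b*, *Pde4d*, *Pde3b*, *Pde8a* and *Pde7b* kept their direction and their side of the threshold in all 3 comparisons. Of 528 values for single genes, 495 did so, 30 lost a call, 1 gained one and 2 changed sign; these 33 belong to *Pde4a*, *Pde7a* and *Pde1b*. The sign changed for *Pde1b* at 1 h without the 1 h library of mouse 1 (log2 fold change 0.0378, range over libraries left out -0.12 to 0.0378) and for *Pde4a* at 4 h without the untreated library of mouse 3 (-0.0019, range -0.0019 to 0.0480), neither of them called. *Pde7a* at 1 h was called without the untreated library of mouse 3 (adjusted p = 0.0479). With no filter on low counts 9.54%, 19.6% and 18.6% of all genes were called at 1 h, at 4 h and between them, and at an adjusted p under 0.01 12.8% were called at 1 h; more genes were tested in the former and the threshold was stricter in the latter. With 1 library left out, 3 to 5 members were called at 1 h, 5 to 7 at 4 h and 7 to 8 between the times. In the same fits 16.7% to 19.8%, 35.6% to 39.7% and 33.5% to 37.8% of all genes were called.

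With the mouse as a block no call of a member changed. For the share of *Pde4b* and *Pde4d*, the paired differences were 34.2 points at 1 h, 6.38 at 4 h and -27.9 between the times, in 4 of 4 mice each; no p is given for them. Counts of 0 to 5 for *Pde2a* are too few for a comparison.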
